A study of Mus musculus with 4 samples.

Results

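Genes with genomic imprinting are read mainly from the chromosome copy of 1 parent, and a group of them acts on growth before and after birth. Here 10 such genes were followed in cultured oligodendroglial cells: H19, Igf2, Dlk1, Meg3, Peg3, Cdkn1c, Plagl1, Grb10, Ndn and Mest. They were chosen by name and matched to the gene symbols of the count tables, which list 53465 genes, and all 10 were found. RNA-Seq was carried out on primary (1°) mouse oligodendroglial cells (OGCs) that had been kept in differentiation medium for 3 days (3ddiff) after shake-off from mixed forebrain cultures and depletion of microglia. There were 2 ctrl libraries (Zfp276 flox/flox) and 2 Zfp276cko libraries (Zfp276 flox/flox with the Sox10::Cre transgene), each from a separate preparation of cells pooled from 3 mice at postnatal days 2 to 4. Both genotypes thus carried the floxed allele, and only Zfp276cko cells carried Cre. Per the methods of the study, mice for such cultures also had a Cre-dependent tdTomato reporter at Rosa26, by which Zfp276cko newborns were recognized, and the background was a mix of C3H and C57Bl/6J. In these mice Cre is expressed under control of Sox10, a transcription factor of the oligodendroglial lineage. The study reports deletion in OGCs and describes it as incomplete. Recombination in other cells of the cultures was not measured here. The libraries were single-end reads of 101 bp from stranded poly(A) RNA, and they held 21311469 (ctrl replicate 1), 21068322 (ctrl replicate 2), 25265366 (Zfp276cko replicate 1) and 26599809 (Zfp276cko replicate 2) counted reads. To compare libraries, counts were scaled to a common library size with TMM factors, which remove differences in depth and composition, and are given as normalized counts. Counts per gene carry no information on the parental allele, so imprinting itself was not measured.

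As background, imprinted genes lie in clusters in which methylation set in the germ line keeps 1 parental copy silent. Paternally expressed members are often promoters of growth and maternally expressed ones are often brakes on it. Of the 10 genes, 4 are expressed mainly from the maternal copy (H19, Meg3, Cdkn1c and Grb10) and 6 from the paternal copy (Igf2, Dlk1, Peg3, Plagl1, Ndn and Mest), although in neurons Grb10 is read from the paternal copy. Many of these genes are high in the embryo and are turned down after birth, and several stay active in brain, meninges or stem cells.

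Cytosines of CpG pairs are the bases at which parental copies differ in methylation. Printed here are the bases before the start site for Dlk1 and Meg3, neighbours on chromosome 12 with opposite parental expression, and for Mest, the member with the widest gap between ctrl replicates in the opposite direction to Dlk1. Sequences came from RefSeq (GRCm38.p6), in which 8 of the 10 genes had an entry. Each window comprises 250 bases on the plus strand and overlaps no annotated exon, and CpG pairs are in capitals.
Dlk1 (chr12:109452573-109452822, plus strand): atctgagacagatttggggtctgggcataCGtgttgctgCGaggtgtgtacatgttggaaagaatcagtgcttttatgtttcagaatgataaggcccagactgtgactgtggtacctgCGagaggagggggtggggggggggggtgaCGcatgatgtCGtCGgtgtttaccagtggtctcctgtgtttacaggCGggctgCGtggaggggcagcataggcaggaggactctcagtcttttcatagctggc
Meg3 (chr12:109540746-109540995, plus strand): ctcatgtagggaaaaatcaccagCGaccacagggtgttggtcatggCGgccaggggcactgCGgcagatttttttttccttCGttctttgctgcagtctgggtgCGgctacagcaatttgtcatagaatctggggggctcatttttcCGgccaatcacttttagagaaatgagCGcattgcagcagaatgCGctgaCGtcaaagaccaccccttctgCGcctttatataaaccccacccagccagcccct
Mest (chr6:30737800-30738049, plus strand): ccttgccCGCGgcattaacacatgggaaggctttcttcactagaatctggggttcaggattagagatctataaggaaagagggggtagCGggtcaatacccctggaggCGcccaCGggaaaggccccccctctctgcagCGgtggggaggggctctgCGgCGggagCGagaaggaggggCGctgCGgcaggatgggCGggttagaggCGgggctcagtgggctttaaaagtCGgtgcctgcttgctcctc
The Dlk1 window held 8 CpG pairs, the Meg3 window 10 and the Mest window 14. At least 1 CpG was found in 92.1% of the 32851 RefSeq promoter windows of this length, whose median was 6. The share of windows with fewer CpG pairs was 57.0% for Dlk1, 62.2% for Meg3 and 70.6% for Mest. No methylation was measured.

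Some of the genes are also hosts of microRNAs, among them Meg3. Shown here are those of H19 (miR-675) and Mest (miR-335), whose hosts differed most in each direction between the ctrl replicates. The seed, bases 2 to 8 that pair with target mRNAs, is in capitals.
mmu-miR-675-5p (chr7:142577112-142577133, minus strand): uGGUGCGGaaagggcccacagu
mmu-miR-675-3p (chr7:142577078-142577099, minus strand): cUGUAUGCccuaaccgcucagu
mmu-miR-335-5p (chr6:30741314-30741336, plus strand): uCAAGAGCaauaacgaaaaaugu
mmu-miR-335-3p (chr6:30741354-30741375, plus strand): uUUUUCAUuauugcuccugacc
The 4 seeds differ from each other. Mature microRNAs are too short for poly(A) libraries, and the precursor entries had 0 counts in every library for Mir675 and 1 count, in ctrl replicate 2, for Mir335.

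The ctrl libraries stood apart from each other and from the rest of the series, and this bears on every value below. In a principal component analysis the first component (51.2% of the variance) set ctrl replicate 1 apart, and the second (45.9%) set ctrl replicate 2 apart, while the Zfp276cko replicates lay together. The median absolute log2 difference over the 14324 genes whose mean reached 20 normalized counts was 0.292 in the ctrl pair and 0.0868 in the Zfp276cko pair. Zfp276 had 1648 and 2230 normalized counts in the ctrl libraries and 490 and 503 in the Zfp276cko libraries, a log2 fold change of -1.97 (SE 0.18), in the direction that the labels give. Its adjusted p was 0.0962 with edgeR's quasi-likelihood test and 1.21e-14 with DESeq2. Sox10 had between 17805 and 20744 normalized counts in all 4 libraries, with a log2 fold change of -0.09. The myelin gene Mbp was the most counted of the oligodendrocyte genes, with at least 87161 normalized counts in every library.

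None of the imprinted growth genes passed the thresholds between the genotypes. Of the 10 genes 9 had enough counts to be tested, and edgeR called 0 of them, as it did with all 15766 tested genes (0% in either direction). Genes were called when the adjusted p did not exceed 0.05, the log2 fold change was 0.6 or more in size and the mean reached 20 normalized counts. DESeq2 likewise called 0 of the 9, beside 2.21% of its 15289 genes called lower and 2.92% called higher (5.13% in all). At an unadjusted edgeR p of at most 0.05 there was 1 gene, Ndn, against a background of 15.6%. The median log2 fold change of the 9 genes was -0.16, and that of all tested genes was -0.0013. Both Zfp276cko libraries were below both ctrl libraries for 1 gene (Ndn; background 23.7%) and above them for 2 genes (Meg3 and Plagl1; background 26.8%), and the genotypes overlapped for the other 6, where 50.5% of all tested genes had no overlap. Smallest among the adjusted p-values of the 9 genes was 0.268 with edgeR and 0.315 with DESeq2.

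**Figure D1:**
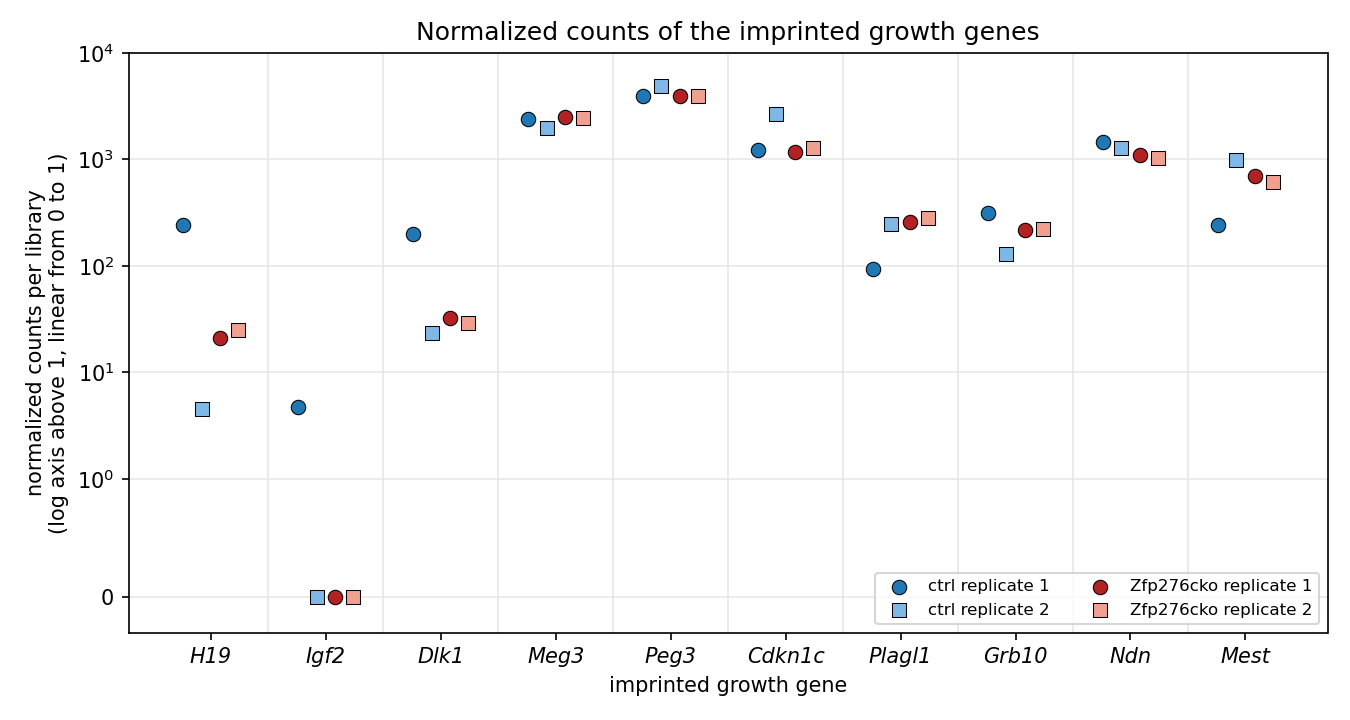
Normalized counts of the 10 imprinted growth genes in each library, on an axis that is logarithmic above 1 and linear from 0 to 1; each point is 1 library. The ctrl points of H19 (240 and 4.50) lie far apart, while the Zfp276cko points of every gene lie close together.

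H19 and Igf2 are neighbours on chromosome 7 that share enhancers and have opposite parental expression. H19 (chr7:142575529-142578143, minus strand) gives rise to a noncoding RNA, and Igf2 (chr7:142650766-142666816, minus strand) encodes a fetal growth factor. The genes are 72.6 kb apart. H19 had 202 counts in ctrl replicate 1, 4 in ctrl replicate 2, 23 in Zfp276cko replicate 1 and 29 in Zfp276cko replicate 2, or 240, 4.50, 20.8 and 24.9 normalized counts. Most H19 reads of the series therefore came from a single ctrl library, and both Zfp276cko libraries lay between the ctrl libraries. The mean was 122 ± 166 (SD, n = 2) in ctrl cells and 22.9 ± 2.90 in Zfp276cko cells, and the log2 fold change of -2.41 had an SE of 1.61 and an adjusted p of 0.534 (edgeR). Without ctrl replicate 1 the log2 fold change of H19 was 2.32, and without ctrl replicate 2 it was -3.39, so that the direction turned with the ctrl library used.

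Igf2 was at the limit of detection. It had 4 counts in ctrl replicate 1 and 0 in each of the other 3 libraries, where the floor of 3 counts per library corresponds to 3.38 (ctrl replicate 2), 2.71 and 2.58 normalized counts (Zfp276cko replicates 1 and 2), and the exact 95% counting intervals reach 4.15, 3.34 and 3.17. It was not tested, and no fold change is given. A ratio of H19 to Igf2 could not be formed in the 3 libraries with Igf2 at 0.

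Dlk1 and Meg3 mark the Dlk1-Dio3 cluster on chromosome 12, where their gene bodies are 77.7 kb apart. Dlk1 (chr12:109452823-109463336, plus strand) encodes a membrane protein with EGF-like repeats that is made by precursor cells of several lineages. It had 199 and 23.6 normalized counts in the ctrl libraries and 32.6 and 29.2 in the Zfp276cko libraries. Like H19, it was high in ctrl replicate 1 alone, at 8.44 times the level of ctrl replicate 2 (95% counting interval 5.35 to 14.0). Means were 112 ± 124 and 30.9 ± 2.38, with a log2 fold change of -1.85 (SE 1.04, adjusted p = 0.469, edgeR). Without ctrl replicate 1 the value was 0.38, and without ctrl replicate 2 it was -2.70.

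Meg3 (chr12:109541001-109571726, plus strand), a long noncoding RNA of the maternal copy, differed little between libraries. It had 2373 and 1960 normalized counts in the ctrl libraries and 2527 and 2430 in the Zfp276cko libraries. Both Zfp276cko libraries were above both ctrl libraries, by a log2 fold change of 0.19 (SE 0.13, adjusted p = 0.522, edgeR). Without ctrl replicate 1 the log2 fold change of Meg3 was 0.34, and without ctrl replicate 2 it was 0.049. The genotypes did not overlap, but the distance between them was less than that between the ctrl replicates. Per kilobase of exon, Meg3 exceeded Dlk1 by 1.90 on the log2 scale in ctrl replicate 1, by 4.70 in ctrl replicate 2 and by 4.60 and 4.70 in Zfp276cko replicates 1 and 2. The ratio was thus alike in 3 libraries (between 24.3 and 26.0) and lower in ctrl replicate 1 (3.72). The difference between genotypes was 1.35 on the log2 scale with an exact two-sided permutation p of 0.667, where the smallest p that 2 libraries against 2 allow is 0.333, and without ctrl replicate 1 it was -0.05.

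Cdkn1c and Grb10 are brakes on growth. Cdkn1c (chr7:143458339-143461050, minus strand) encodes p57, an inhibitor of cyclin-dependent kinases that helps oligodendrocyte precursor cells (OPCs) to leave the cell cycle. It had 1219 and 2659 normalized counts in the ctrl libraries and 1187 and 1269 in the Zfp276cko libraries. Only ctrl replicate 2 stood out, at 2.18 times the level of ctrl replicate 1 (95% counting interval 2.03 to 2.35). The log2 fold change was -0.66 (SE 0.39, adjusted p = 0.490, edgeR). Against ctrl replicate 2 alone it was -1.11, and against ctrl replicate 1 alone the genotypes were level (-0.0031). Exons of Gm44732 cover 30.7% of those of Cdkn1c on the opposite strand, and Gm44732 had between 5 and 25 counts.

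Grb10 (chr11:11930508-12038683, minus strand) encodes an adaptor protein that binds insulin and insulin-like growth factor receptors and dampens their signal. It had 315 and 129 normalized counts in the ctrl libraries and 215 and 220 in the Zfp276cko libraries. Both Zfp276cko libraries lay near the middle of the ctrl range, with means of 222 ± 131 in ctrl cells and 218 ± 3.24 in Zfp276cko cells and a log2 fold change of -0.03 (SE 0.46, adjusted p = 0.985, edgeR). Compared with ctrl replicate 2 alone, the log2 fold change of Grb10 was 0.75 (adjusted p = 0.000598, edgeR), and compared with ctrl replicate 1 alone it was -0.54 (adjusted p = 0.00153, edgeR). In such a fit the lone ctrl library is assumed to vary like the Zfp276cko replicates.

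Peg3 and Plagl1 are zinc finger genes of the paternal copy. Peg3 (chr7:6703892-6730431, minus strand), which is linked to growth and nurturing behaviour in mice, had the most counts of the 10 genes. It had 3955 and 4893 normalized counts in the ctrl libraries and 3942 and 3986 in the Zfp276cko libraries. The log2 fold change was -0.16 (SE 0.14, adjusted p = 0.629, edgeR), with -0.30 when ctrl replicate 1 was left out and -0.011 when ctrl replicate 2 was. In both Zfp276cko libraries Peg3 was below ctrl replicate 2 and close to ctrl replicate 1.

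Plagl1 (chr10:13060504-13131694, plus strand), also known as Zac1, encodes a transcription factor that regulates other imprinted genes. It had 92.6 and 246 normalized counts in the ctrl libraries and 257 and 279 in the Zfp276cko libraries. Here ctrl replicate 1 was the library apart, and the other 3 were within a narrow range. The log2 fold change was 0.66 (SE 0.50, adjusted p = 0.582, edgeR), with 0.12 when ctrl replicate 1 was left out and 1.52 when ctrl replicate 2 was. Although both Zfp276cko libraries were above both ctrl libraries, ctrl replicate 2 was close to them.

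Ndn (chr7:62346569-62350262, plus strand) encodes necdin, a protein of the MAGE family that restrains cell division in neurons and lies in the Prader-Willi region. It had 1465 and 1275 normalized counts in the ctrl libraries and 1092 and 1040 in the Zfp276cko libraries. The log2 fold change of -0.36 (SE 0.11) came with an unadjusted p of 0.0292 and an adjusted p of 0.268 (edgeR). Ndn was the single gene of the 10 with both Zfp276cko libraries below both ctrl libraries, and it was lower whichever library was left out, with log2 fold changes between -0.47 and -0.26. The size of this difference was below the threshold of 0.6.

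Mest (chr6:30723547-30748465, plus strand) encodes a hydrolase of the endoplasmic reticulum. It had 245 and 990 normalized counts in the ctrl libraries and 695 and 608 in the Zfp276cko libraries. The ctrl replicates differed 4.05-fold (95% counting interval 3.48 to 4.74), and the Zfp276cko libraries lay between them. The log2 fold change was 0.08 (SE 0.67, adjusted p = 0.970, edgeR). Without ctrl replicate 1 it was -0.60, and without ctrl replicate 2 it was 1.40. Over 23.1% of its exon bases Mest overlaps Copg2 on the opposite strand, and the setting for strand in the counting is not known here. Copg2 was even, with between 1299 and 1450 normalized counts.

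Of the 9 genes whose mean reached 20 normalized counts, 6 differed 2-fold or more within the ctrl pair, which 12.7% of 14324 genes did. These were H19 (53.3-fold, 95% counting interval 20.5 to 197), Dlk1, Mest, Plagl1 (2.66-fold), Grb10 (2.43-fold) and Cdkn1c. The difference of H19 was larger than that of 99.7% of the 14324 genes, and that of Dlk1 was larger than that of 98.3%. Corresponding values were 96.0% for Mest, 92.9% for Plagl1, 91.4% for Grb10 and 89.3% for Cdkn1c. Between the Zfp276cko replicates 0 of the 9 genes were 2-fold apart, beside 0.307% of the background, and the largest ratio was the 1.20-fold of H19. The differences did not run in 1 direction, since H19, Dlk1, Meg3, Grb10 and Ndn were higher in ctrl replicate 1 and Peg3, Cdkn1c, Plagl1 and Mest were higher in ctrl replicate 2. Maternally and paternally expressed genes were found on both sides. The counting intervals cover counting error only and not the differences between preparations.

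**Figure D2:**
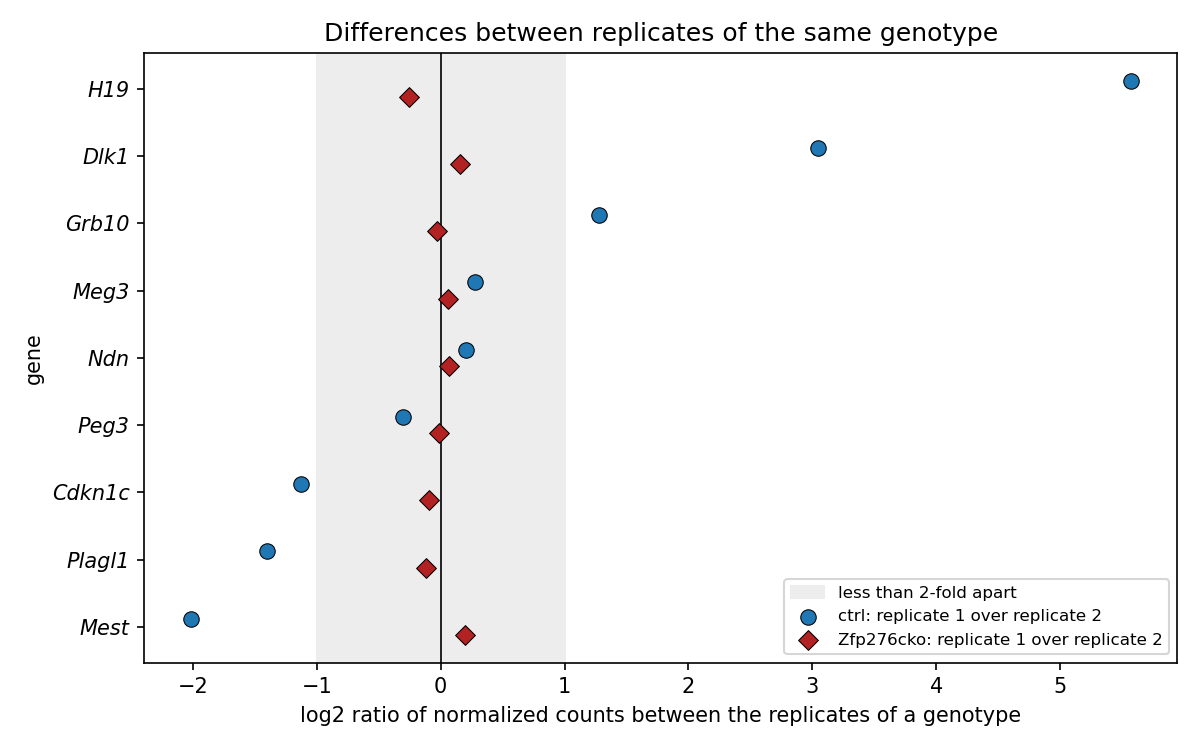
Log2 ratio of normalized counts between replicate 1 and replicate 2 of the same genotype, with 1 point per genotype for each of the 9 genes whose mean reached 20 normalized counts. The ctrl ratios run from 5.57 for H19 to -2.01 for Mest, and the Zfp276cko ratio furthest from 0 is that of H19, at -0.25.

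For 4 of the 9 genes (H19, Dlk1, Grb10 and Mest) the sign of the fold change depended on which ctrl library was left out, and the same was true of 38.3% of all tested genes. Both Zfp276cko libraries lay between the ctrl libraries for 4 of the 9 genes, compared with 27.7% of all tested genes. Without ctrl replicate 1, edgeR called Cdkn1c and Mest lower and Grb10 higher, amid 16% of tested genes called in either direction. Without ctrl replicate 2, it called H19 and Dlk1 lower and Plagl1 and Mest higher, amid 18.6%. Mest thus passed the thresholds in opposite directions. Leaving out either Zfp276cko library gave 0 calls among the 9 genes and among all tested genes (0%).

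**Figure D3:**
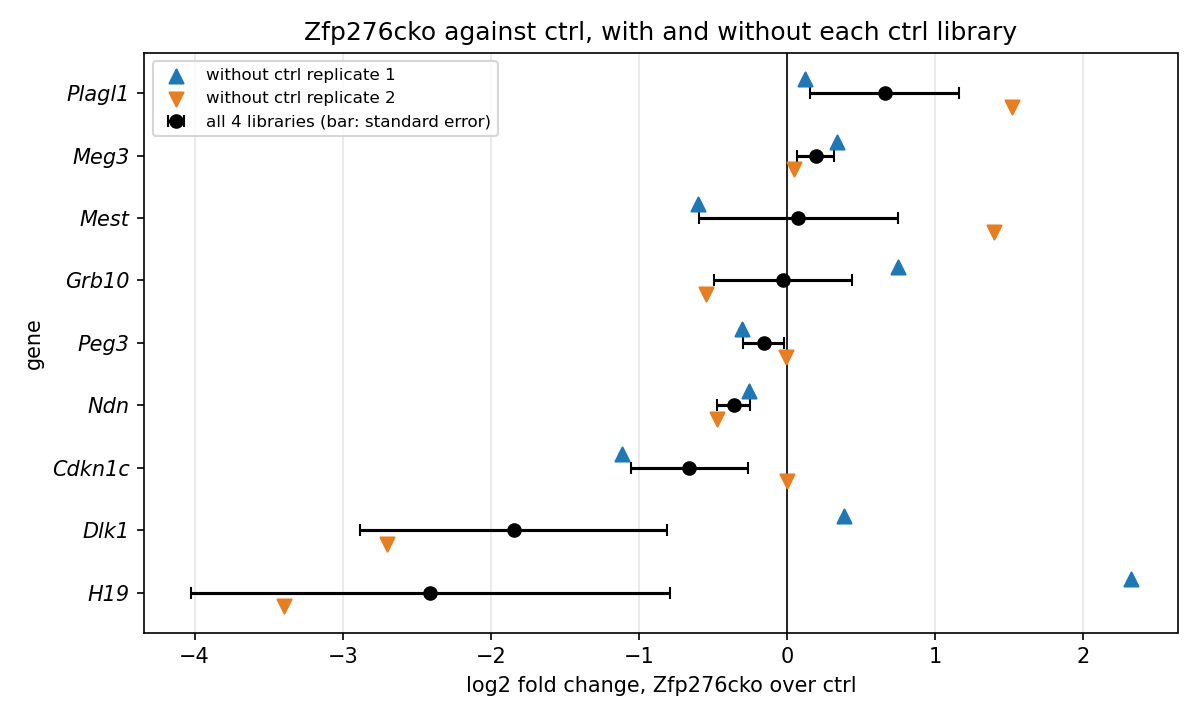
Log2 fold change (Zfp276cko over ctrl) of the 9 tested genes from edgeR, with all 4 libraries (circle, bar: standard error) and without 1 ctrl library (triangles). The triangles of H19 stand at 2.32 and -3.39 and those of Ndn at -0.26 and -0.47.

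Marker genes of other cell types moved between the same libraries. As these are bulk libraries, fewer cells of a type cannot be told apart from less RNA per cell. The summed level of 5 fibroblast and meningeal genes (most counted: Col1a2) was 7878 normalized counts in ctrl replicate 1, 153 in ctrl replicate 2 and 196 and 167 in Zfp276cko replicates 1 and 2. This 51.5-fold difference between the ctrl replicates ran in the direction of H19 and Dlk1. The summed level of 6 neuronal genes (most counted: Tubb3) was 1247 in ctrl replicate 1, 6084 in ctrl replicate 2 and 3977 and 3906 in Zfp276cko replicates 1 and 2, so that ctrl replicate 1 was lowest and ctrl replicate 2 highest, as with Mest. Gad1, which makes the transmitter GABA, had 78.4 and 2002 normalized counts in the ctrl replicates. The summed level of 6 microglial genes (most counted: C1qa) was 25904, 12109, 13909 and 15122 in the same order, and among them Csf1r had 11409 normalized counts in ctrl replicate 1 and 1850 in ctrl replicate 2. The other microglial genes did not all follow, since Aif1 had 1248 and 3204 normalized counts in the ctrl replicates and Cx3cr1 had 2290 and 2369. The sum of 6 astrocyte genes was closer together (27289, 23200, 26286 and 25469, most counted: Gfap), but 4 of the 6 differed 2-fold or more within the ctrl pair, 1 of them higher in ctrl replicate 1 (Gfap, 17641 and 8463) and 3 higher in ctrl replicate 2 (such as Aqp4, 1838 and 3818).

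All 12 cell cycle genes were higher in ctrl replicate 2 than in ctrl replicate 1, with sums of 15057, 24609, 23029 and 22792 (most counted: Mki67). The inhibitor Cdkn1c was higher in ctrl replicate 2 as well, but the likeness ended there. Its Zfp276cko values (1187 and 1269) were near ctrl replicate 1 (1219), whereas the cell cycle sums of Zfp276cko were near ctrl replicate 2. Vessel genes were low (between 133 and 215 for 6 genes, most counted: Pecam1), with Cldn5 and Abcc9 at 3 counts or fewer in every library. The 4 choroid plexus and ependymal genes (most counted: Foxj1) summed to 457, 397, 315 and 126, with Folr1 at 3 counts or fewer. Among them Ttr, which makes transthyretin, had 251 and 159 normalized counts in the ctrl libraries, 187 in Zfp276cko replicate 1 and 0 in Zfp276cko replicate 2, so that the Zfp276cko replicates differed here. The OPC genes (most counted: Gpr17) summed to 175542, 128667, 96107 and 94192, of which Gpr17 held most in the ctrl libraries (113405 and 69766 in the ctrl libraries, 43296 and 41092 in the Zfp276cko libraries), while the genotypes overlapped for Pdgfra (10049 and 15501, 11842 and 11561). The oligodendrocyte genes (most counted: Mbp) summed to 322606, 433313, 225449 and 230787. Interferon response genes (most counted: Ifit3) summed to 14397 and 6549 in the ctrl libraries and 101400 and 99718 in the Zfp276cko libraries. Among these lists edgeR called 0 genes. DESeq2 called 15 of 16 interferon response genes higher, 7 of 10 oligodendrocyte genes and 2 of 6 OPC genes lower, and 0 genes of the other lists. Of all its tested genes DESeq2 called 2.92% higher and 2.21% lower. The part of these cell types and responses in the values of the imprinted genes was not tested.

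**Figure D4:**
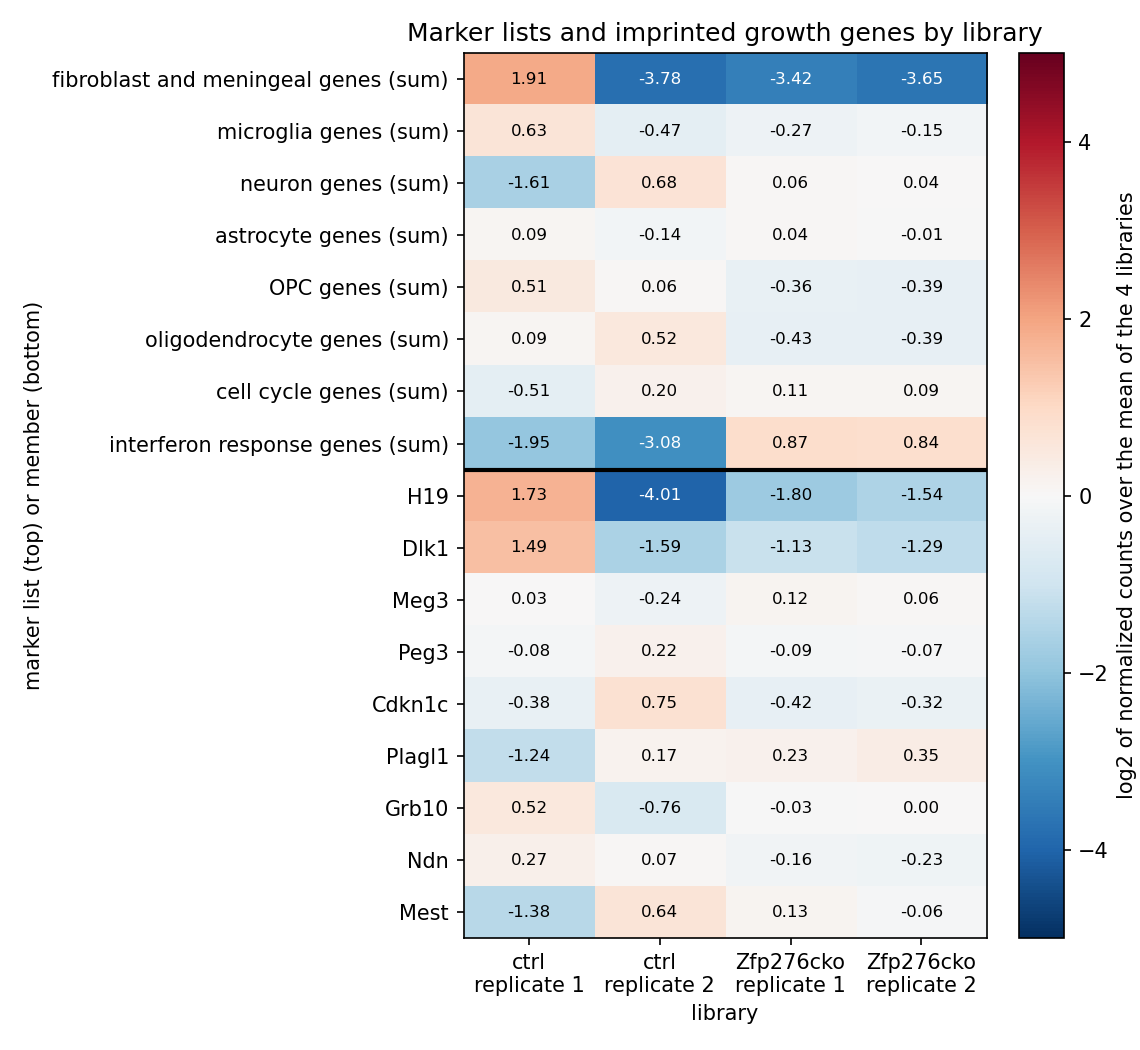
Colour map of the summed normalized counts of 8 marker lists (top) and of 9 imprinted growth genes (bottom) in each library, as log2 over the mean of the 4 libraries. The fibroblast and meningeal sum (1.91), H19 (1.73) and Dlk1 (1.49) are raised in ctrl replicate 1, where the neuronal sum (-1.61), Mest (-1.38) and Plagl1 (-1.24) are low.

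The genes whose pattern over the 4 libraries was most like that of a member were found by the root mean square difference of log2 normalized counts after centring each gene, among 14323 genes. For H19 these were Fcgr3 (0.260), Mrc1 (0.279) and Hpse (0.284), none of them a close match. Fcgr3, an Fc receptor, had 1656 and 23.6 normalized counts in the ctrl libraries and 152 and 161 in the Zfp276cko libraries. For Dlk1 they were Timp1 (0.0616), Ptgs1 (0.0987) and Gm28869 (0.121), and Timp1, an inhibitor of metalloproteinases, had 391 and 52.9 in the ctrl libraries and 66.1 and 60.1 in the Zfp276cko libraries. H19 and Dlk1 themselves differed by 0.909, since the gap between the ctrl replicates was wider for H19. For Mest the closest were Lgi2, Ecm2 and Cd69, for Plagl1 Gm45447, Ccdc177 and Cyp7b1, and for Cdkn1c Lpl, B9d1os and Ptpn13. Lpl, the lipoprotein lipase, had 1977 and 4332 in the ctrl libraries and 1823 and 1912 in the Zfp276cko libraries, as high in ctrl replicate 2 alone as Cdkn1c was. For Grb10 they were Elk3, Atp1b2 and Ptpn7, for Meg3 Pde1b, Vat1l and Usp11, for Peg3 Dctpp1, Ttpal and Elof1, and for Ndn Pdxdc1, Stam and 4833439L19Rik. With 4 libraries many genes can share a pattern, and no shared function is implied.

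Levels of different genes were compared per kilobase of annotated exon. Cdkn1c had the highest mean level over the 4 libraries, with 777 normalized counts per kb, above 90.5% of the 15469 tested genes with a length. It was followed by Ndn (330), Peg3 (315), Mest (161), Meg3 (128), H19 (29.5), Plagl1 (28.0), Grb10 (24.2), Dlk1 (12.6) and Igf2 (0.207), where the median of tested genes was 128. Ranges over the 4 libraries overlapped between Ndn and Peg3, between Mest and Meg3, between H19 and Plagl1, between Plagl1 and Grb10 and between Grb10 and Dlk1, so these 5 of the 9 neighbouring pairs are not ordered beyond their spread. H19 ranged from 1.83 to 97.5 per kb, that is from below Dlk1 to above Plagl1.

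The other genes of the imprinted domains were described from 9 lists of 94 genes, of which 92 were in the files and 64 were tested. edgeR called 0 of the 64. DESeq2 called 1 lower (Tssc4) and 1 higher (Igf2r), beside 2.21% lower and 2.92% higher of all its tested genes. Their median log2 fold change was 0.0026. Both Zfp276cko libraries were below both ctrl libraries for 15 of them (background 23.7%) and above for 16 (background 26.8%). Within the ctrl pair 7 (10.9%) differed 2-fold or more, where the background was 12.7%. In the domain of H19 and Igf2 the most counted gene was the protease gene Ctsd, with 32267 and 12168 normalized counts in the ctrl libraries and 32282 and 31110 in the Zfp276cko libraries. There, Lsp1, a leukocyte protein, had 101 and 14.6 normalized counts in the ctrl libraries and 16.3 and 20.6 in the Zfp276cko libraries, with ctrl replicate 1 apart as for H19, whereas Mrpl23 lay between 78.8 and 111 in all libraries.

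In the domain of Cdkn1c, Kcnq1ot1, a noncoding RNA of the paternal copy that silences its neighbours, had 901 and 482 normalized counts in the ctrl libraries and 304 and 378 in the Zfp276cko libraries (log2 fold change -1.02, adjusted p = 0.302, edgeR; -0.49 without ctrl replicate 1 and -1.41 without ctrl replicate 2). Tssc4 had 1576 and 1059 in the ctrl libraries and 743 and 677 in the Zfp276cko libraries, with a log2 fold change of -0.89 (adjusted p = 0.207 with edgeR and 0.0237 with DESeq2). Without ctrl replicate 1 this fold change was -0.58, under the threshold of 0.6 in size. Cdkn1c itself did not share this order, as it was highest in ctrl replicate 2 and these were highest in ctrl replicate 1. Ascl2, a transcription factor gene of the same domain, ran the other way, with 27.3 and 24.8 in the ctrl libraries and 58.8 and 69.6 in the Zfp276cko libraries (log2 fold change 1.30, adjusted p = 0.186, edgeR). The most counted genes of the domain were Cd81 (19392 and 10796 in the ctrl libraries, 10970 and 10425 in the Zfp276cko libraries) and Nap1l4, which ranged from 4293 to 5352. In the domain of Dlk1 and Meg3, Rian, a noncoding RNA of the maternal copy like Meg3, had 1292 and 865 in the ctrl libraries and 1031 and 1002 in the Zfp276cko libraries. Rtl1, of the paternal copy like Dlk1, had 3 counts or fewer in every library. Wars, which lies outside the imprinted core, was even at between 2287 and 2513.

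In the domain of Peg3, Usp29 had 129 and 420 in the ctrl libraries and 270 and 302 in the Zfp276cko libraries, and Zim1 had 392 and 207 in the ctrl libraries and 218 and 195 in the Zfp276cko libraries. These neighbours were further apart between the ctrl replicates than Peg3 was, and in opposite directions. Around Ndn, the paternally expressed Snrpn had 1939 and 2063 normalized counts in the ctrl libraries and 1847 and 1721 in the Zfp276cko libraries (log2 fold change -0.17, adjusted p = 0.469, edgeR). Snhg14 ran the other way (log2 fold change 0.33, adjusted p = 0.362, edgeR), and the genotypes overlapped for Mkrn3 and Peg12. Of the 8 tested genes of this domain list 3 were below both ctrl libraries (background 23.7%) and 2 above (background 26.8%). Ube3a had 3511 and 3586 in the ctrl libraries and 3889 and 4410 in the Zfp276cko libraries (adjusted p = 0.407, edgeR), and Magel2, a gene of the same family, had 10 counts or fewer in every library. Near Grb10, Ddc had 1219 and 1690 in the ctrl libraries and 1787 and 1822 in the Zfp276cko libraries, and near Plagl1, Ltv1 had 983 and 986 in the ctrl libraries and 806 and 872 in the Zfp276cko libraries. Neither followed the imprinted gene beside it in ctrl replicate 1, where Grb10 was high and Plagl1 was low. Among imprinted genes of other domains Gnas was the most counted, with between 25103 and 28885, and Nnat had 14342 and 8904 in the ctrl libraries and 13215 and 12836 in the Zfp276cko libraries. Dcn, an imprinted gene that is also on the fibroblast list, had 224 and 12.4 in the ctrl libraries and 16.3 and 15.5 in the Zfp276cko libraries, with ctrl replicate 1 apart as for H19 and Dlk1 (adjusted p = 0.408, edgeR).

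Igf2 and Grb10 belong to the insulin-like growth factor pathway, whose ligands signal through the receptor kinase Igf1r and are held by binding proteins. Of 29 listed genes 23 were tested, and edgeR called 0 of them. DESeq2 called 2 lower (Igfbp4 and Igfbp5) and 1 higher (Igf2r), beside 2.21% lower and 2.92% higher of all its tested genes. With Igf2 at the limit of detection, Igf1 was the ligand of the pathway that was counted. It had 2340 and 659 normalized counts in the ctrl libraries and 1089 and 1094 in the Zfp276cko libraries, a log2 fold change of -0.46 (adjusted p = 0.766, edgeR) which turned to 0.73 when ctrl replicate 1 was left out and was -1.11 when ctrl replicate 2 was. Igf1 thus showed the order of the libraries seen with Grb10. The receptor Igf1r was between 1583 and 2109 in all libraries, and the insulin receptor Insr between 1956 and 2105. Downstream, Pik3r1, a regulatory subunit of the lipid kinase that these receptors activate, ranged from 8144 to 9407, and the kinase Akt1 from 5179 to 5825. For Irs1, Irs2 and Akt2 both Zfp276cko libraries were below both ctrl libraries (log2 fold changes -0.43, -0.53 and -0.33, edgeR). For Akt1 and Foxo3 they were above (0.11 and 0.31). Of the 23 tested genes 8 were below (background 23.7%) and 5 above (background 26.8%).

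Igf2r, the receptor that takes up Igf2 and is itself expressed from the maternal copy, had 1662 and 1906 normalized counts in the ctrl libraries and 2947 and 2828 in the Zfp276cko libraries. Its log2 fold change was 0.69, and between 0.60 and 0.78 whichever library was left out, with an adjusted p of 0.134 (edgeR) and 0.00184 (DESeq2). The binding protein Igfbp4 had 773 and 464 in the ctrl libraries and 178 and 161 in the Zfp276cko libraries (log2 fold change -1.87, adjusted p = 0.138 with edgeR and 8.44e-06 with DESeq2). Igfbp5 had 1286 and 1063 in the ctrl libraries and 690 and 724 in the Zfp276cko libraries (log2 fold change -0.73, adjusted p = 0.162 with edgeR and 0.00914 with DESeq2), and its fold change without ctrl replicate 1 was -0.59, under the threshold. These 3 genes were the members of the pathway list past the thresholds of DESeq2, which called 5.13% of all its tested genes. Their Zfp276cko libraries lay outside the range of the ctrl libraries. That was not particular to them. Of the 23 tested pathway genes 8 were below both ctrl libraries and 5 above, and 50.5% of all tested genes had no overlap.

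Relatives of the growth genes were also followed, of which Zim1 and Magel2 lie in imprinted domains themselves. Of 14 listed paralogs 12 were tested, with 0 called by edgeR and 0 by DESeq2 and a median log2 fold change of -0.13. Cdkn1a, which encodes p21, had 4779 and 2516 normalized counts in the ctrl libraries and 4646 and 4593 in the Zfp276cko libraries, so that it was low in the ctrl library in which Cdkn1c was high. Cdkn1b, which encodes p27, had between 1479 and 1925. Grb14, the relative of Grb10, had 446 and 240 in the ctrl libraries and 252 and 308 in the Zfp276cko libraries, and Maged1, a relative of Ndn, was the most counted of the list with between 15798 and 18580.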

How the data were processed

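Counts per gene of 4 libraries were used as deposited. Per the labels and the methods of the study, the authors mapped the reads to mm10 with STAR 2.5.4a and made whole-number counts per gene without normalization; the methods name HTSeq and the submitters' processing notes name featureCounts 1.5.1, and the strand setting is not given in the sources used here. Replicates are separate preparations, and ctrl and Zfp276cko replicates differed among themselves by more than sampling noise (83.3 and 5.26 chi-square units per gene).

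Genes were kept by filterByExpr (15766 of 53465, 99.9% of the counts), scaled with TMM factors between 0.935 and 1.04 and compared with edgeR 4.0.16 (quasi-likelihood test, Benjamini-Hochberg adjustment over all tested genes, R 4.3.3). Standard errors (SE) were derived from the test, as the size of the log2 fold change over the square root of its quasi-likelihood F statistic. The thresholds are those of the study. DESeq2 1.42.0 (Wald test), other size factors, other filters, a replicate block, unadjusted p-values and leaving out each library were alternatives. Replicate numbers did not pair the samples and were not used in the comparison. Counting intervals are exact (95%), and a floor is 3 counts per library. The depth of 21068322 to 26599809 counts leaves genes of a few counts, such as Igf2, without a usable fold change.

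The 10 genes and the lists of domain, pathway, paralog and marker genes were chosen with earlier results of these data known. Named by rule were all 10 genes, the 3 genes nearest in pattern to each of the 9 with a mean of at least 20, genes of each list past the thresholds or among the 4 with the highest means, and Zfp276 and Sox10. Kcnq1ot1, Ascl2, Rtl1, Magel2, Snhg14, Mkrn3, Peg12, Igf1, Igf1r, Insr, Irs1, Irs2, Akt2, Foxo3, Grb14 and markers at the floor were named after their values were seen. Positions came from GENCODE M21 (GRCm38), and levels per kilobase use the union of exons. On simulated counts with 200 of 15766 genes changed by 2 on the log2 scale, edgeR recovered 98% with the pooled spread of the 4 libraries and 100% with the spread of the Zfp276cko libraries, and DESeq2 recovered 98.5% and 100%. Unchanged genes called were 8 and 0 with edgeR and 16 and 0 with DESeq2. In the measured libraries edgeR called 0 of 15766 genes. Among those not called was Zfp276, with a log2 fold change of -1.97 (adjusted p = 0.0962, edgeR), which DESeq2 did call. The simulated shares therefore do not tell how often edgeR would find a change of this size in the measured libraries. Some marker genes are not reported here.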

Additional observations from a re-analysis of the deposited data

How the results depend on the processing

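Counts of called genes depended on the test and on the ctrl libraries. The 0 genes called lower and 0 called higher by edgeR became 338 and 447 with DESeq2 and 476 and 806 with an unadjusted p, and 8 were called higher without a filter on low counts. When each library was left out in turn, between 0 and 1286 genes were called lower and between 0 and 1792 higher. Of the imprinted growth genes, between 1 and 4 were below and between 2 and 5 above every ctrl library that was kept. Where a ctrl library was left out, that was 1 library only. With all 4 libraries 1 gene was below both ctrl libraries (background 23.7%) and 2 were above (background 26.8%). With the size factors of DESeq2, 2 were below (Ndn and Peg3). Shares of all tested genes were not computed for the left-out settings or for these size factors. With 1 ctrl library kept, more genes can be free of overlap than with 2. The counts from these settings are therefore not a result about the growth genes. Among the other listed genes (domains, pathway, paralogs, cell cycle and cell type markers), DESeq2 called 12 lower and 1 higher, beside 0 to 32 and 0 to 29 over the left-out libraries. The difference between genotypes (Zfp276cko minus ctrl) in the log2 ratio of Meg3 to Dlk1 ranged from -0.046 to 2.76 over the left-out libraries.

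Among the 9 tested growth genes, the fold change turned its direction when a library was left out for H19 (-3.39 to 2.32), Dlk1 (-2.70 to 0.38), Grb10 (-0.54 to 0.75), Mest (-0.60 to 1.40, also -0.018 without Zfp276cko replicate 1) and, in the pathway, for Igf1 (-1.11 to 0.73). Several other listed genes also turned, such as Lsp1, Dcn and Usp29. The cause was not tested. With the longest transcript in place of the union of exons, 6 of 10 genes kept their place in the order of levels. Deviations of same-numbered replicates had a correlation of 0.0064, so the numbers were not taken to pair the samples. With a replicate block 0 genes were called, and the log2 fold change was -1.03 for H19, -1.23 for Dlk1, 0.38 for Mest, -0.20 for Igf1 and 0.10 for Grb10. H19 gave no value with at least 10 counts in every library, and alternatives of the H19 to Igf2 ratio were not run because Igf2 was at 0 in 3 of 4 libraries.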
